A study of Danio rerio with 11 samples.

Results

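The serotonin synthesis, vesicle loading and reuptake genes are the 6 genes through which a neuron makes, packs and takes back serotonin (5-HT). They were chosen by name and by what they do, with earlier results of these data known, and are 6 of the 39714 gene IDs in the table. They are tph2 (ENSDARG00000057239), ddc (ENSDARG00000016494), gch1 (ENSDARG00000070453), slc18a2 (ENSDARG00000015110), slc6a4a (ENSDARG00000061165) and slc6a4b (ENSDARG00000057017). The libraries are bulk RNA-seq of intraspinal serotonergic neurons (ISNs), which have their cell bodies within the spinal cord, sorted by fluorescence from Tg(tph2:GFP) zebrafish at 6 to 8 weeks after injury. There were 6 libraries of ISNs from the injury segment, called injury ISNs here, and 5 of ISNs from the distal segments, called distal ISNs. The study used juvenile and adult fish of both sexes, 6 to 8 weeks old, with the cord completely cut at the seventh segment, and took both kinds of segment from the same injured fish. All 11 libraries thus come from injured animals of 1 transgenic line, and ISNs of uninjured fish were not analysed here. GFP in this line is driven from tph2, so the sort picks cells with an active tph2 promoter and a high tph2 level is what the sort asks for. How many fish stand behind a library is not given in the sources used here, so p-values measure the spread between these libraries, which may in part be technical.

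Serotonin is made from tryptophan in 2 steps. Tryptophan hydroxylase, Tph2 in neurons, adds a hydroxyl group and sets the pace of the pathway, and aromatic amino acid decarboxylase, Ddc, turns the product into serotonin. The hydroxylase cannot work without tetrahydrobiopterin (BH4), whose synthesis starts with GTP cyclohydrolase, Gch1. The vesicular monoamine transporter Vmat2, encoded by slc18a2, loads serotonin into vesicles, and the plasma membrane serotonin transporter, encoded in zebrafish by the paralogs slc6a4a and slc6a4b, takes released serotonin back up.

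Levels are in FPKM (the fragments of a gene per kilobase of its length and per 1000000 mapped). Those of different genes can be set side by side only as far as the length used and the amplification of each gene allow. The length behind the values was 1082 bases for slc6a4a and 1852 for slc6a4b, against 1762 for slc18a2 to 2466 for ddc in the others. Its part in comparisons between genes was not tested. The totals behind the values ran from 14215980 to 19709661 fragments (exact two-sided permutation p 0.775 for injury against distal libraries). Detection was far less even. Injury replicates 3 and 2 had 4530 and 5443 genes at 1 FPKM or more, against 8448 to 16019 in the other 9 libraries. Most defining serotonergic genes were high in every library. The transcription factor of serotonergic identity, fev, had 1450 to 3304 FPKM in injury ISNs and 1103 to 3111 FPKM in distal ISNs. Gata3, gata2a and the LMX1B ID ENSDARG00000068365 were also above 99 FPKM in all 11. The other LMX1B ID, ENSDARG00000104815, had 0 to 12.5 FPKM in injury ISNs and 0 to 47.0 FPKM in distal ISNs. Of 8 lists of markers of other cell types, that of myelinating oligodendrocytes had the lowest permutation p between the groups. Its summed level was 0 to 748 FPKM in injury ISNs (median 51.1) and 160.1 to 702 FPKM in distal ISNs (median 463; exact two-sided permutation p 0.0346, Benjamini-Hochberg p 0.277 over the 8 lists). Within that list mbpa, a myelin protein gene, had 0 to 234 FPKM in injury libraries (median 21.9) and 129 to 531 FPKM in distal libraries (median 299), a log2 difference of -4.54 (limma p 0.000171, adjusted p 0.838). It was the only ID of the list with an unadjusted p under 0.05, and none of the 6 IDs was at 0 in all libraries. Every other ID of the list had its highest value in injury replicate 6 (plp1b 173, mpz 159, mbpb 116, cldnk 65.1 and plp1a 1.40 FPKM). Of the 6 IDs, 1 had a log2 difference above 0. Other lists varied by library. In injury replicates 6 and 5, urp1, of cerebrospinal fluid-contacting neurons, reached 537 and 213 FPKM, against at most 4.03 FPKM elsewhere. There FABP7 (ENSDARG00000007697), of ependymo-radial glia, stood at 213 and 162 FPKM, and elsewhere at 47.7 FPKM or less. Cd74a, of macrophages, peaked in injury replicate 6 (236 FPKM) and distal replicate 3 (163 FPKM), at 5.58 FPKM or less otherwise. Other markers of these lists did not all follow. Pkd2l1, listed with urp1, had 32.7 FPKM in injury replicate 6 but 0.595 FPKM in injury replicate 5. Of those listed with FABP7, gfap was highest in injury replicates 5 and 6 (33.1 and 31.1 FPKM), sox2 in injury replicate 2 (11.1 FPKM). Apoeb, also of macrophages, was highest in distal replicate 4 (144 FPKM), where cd74a had 4.08 FPKM. Neither urp1, FABP7 nor cd74a had an unadjusted p under 0.05. The part of any of these cells in the results below was not tested. In bulk samples, fewer cells with a transcript and less of it per cell cannot be told apart.

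No difference between injury and distal ISNs was established at any of the 6 genes. None passed the test across the genome, limma on log2(FPKM + 1) with Benjamini-Hochberg adjustment over 24178 genes. Over all genes tested 0% passed as well. At an unadjusted p under 0.05 the count was 0 of the 6, against 2.68% of all genes. With limma voom, run on recovered fragments, again 0 of the 6 passed adjustment, against 0.0124% of all genes. By that fit gch1 alone had an unadjusted p under 0.05 (limma p 0.018), as did 4.83% of all genes. An exact two-sided permutation test gave gch1 p 0.0303, and 2.44% of all genes were under 0.05 by it. The unadjusted tests of gch1 thus disagreed. Nor did the groups stand clear of each other at any of the 6, where 0.252% of all genes did so, 0.0662% with injury ISNs higher and 0.186% with them lower. What the values did show was a steep order of levels, met in full in 3 of 6 injury libraries and 4 of 5 distal libraries. The spread among libraries was smaller at the synthesis genes than at slc6a4a, whose level was also far lower. The extremes of slc6a4a lay in injury replicates 2 and 3, which had the fewest genes detected.

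**Figure D1:**
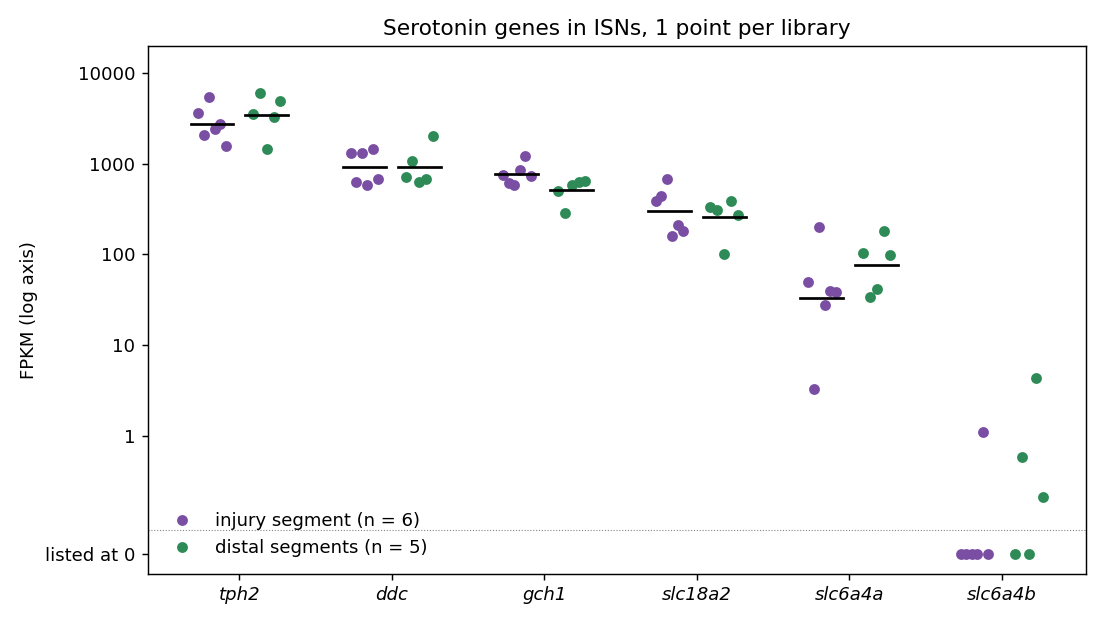
FPKM of the 6 genes on a log axis, with 1 point per library, purple for the injury segment (n = 6) and green for the distal segments (n = 5). Black bars are geometric means, drawn where no library is at 0. Levels step down from tph2 to slc6a4b, and the purple and green points overlap at every gene.

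The hydroxylase tph2 was among the most abundant transcripts of every library. Its FPKM was 3680, 2061, 5396, 2398, 2767 and 1590 in injury replicates 1 to 6, against 3567, 6042, 1462, 3327 and 4957 in distal replicates 1 to 5. Between 56863 and 214509 fragments lay behind these values, 0.309% to 1.28% of a library, so the error of counting fragments was small beside the spread. The RNA was amplified before counting, and error from earlier steps is not covered by this. Both the lowest and the highest library were distal, and the means were 2982 ± 1377 FPKM in injury ISNs and 3871 ± 1738 FPKM in distal ISNs (SD, n = 6 and 5). The log2 difference was -0.35 ± 0.32 (SE; 95% interval -0.998 to 0.31; limma adjusted p 0.838), with 4 of 6 injury libraries below the distal median. Without distal replicate 3, the lowest library, it was -0.66 (limma p 0.0233, adjusted p 0.848), and without distal replicate 2, the highest, -0.15. No other hydroxylase came near it. The 2 IDs with the symbol TPH1, the peripheral and pineal enzyme in mammals, had at most 0.123 FPKM, and pah, phenylalanine hydroxylase, at most 4.92 FPKM, in injury replicate 3.

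The decarboxylase ddc was the step that differed least. Injury replicates 1 to 6 had 1306, 627, 1323, 584, 1471 and 682 FPKM, and distal replicates 1 to 5 had 716, 1082, 623, 683 and 2024 FPKM. The lowest library was an injury one and the highest a distal one, and both groups held low and high libraries. The means were 999 ± 408 FPKM in injury ISNs and 1026 ± 586 FPKM in distal ISNs, and the log2 difference was 0.01 ± 0.39 (SE; 95% interval -0.78 to 0.80; limma adjusted p 0.997). Its sign turned with single libraries, from -0.13 without distal replicate 3 to 0.29 without distal replicate 5. Pyridoxal phosphate is the cofactor of Ddc, and its enzyme genes were low: pnpo had 9.16 to 101 FPKM in injury ISNs and 11.5 to 45.6 FPKM in distal ISNs, and of the 3 IDs of this list, pnpo and 2 of PDXK, none passed an unadjusted p of 0.05.

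Of the 6 genes, gch1 lay most to the injury side. Its FPKM was 746, 608, 586, 846, 1229 and 729 in injury replicates 1 to 6, against 506, 289, 583, 625 and 652 in distal replicates 1 to 5. All 6 injury libraries lay above the distal median and 4 of 6 above every distal library. The means were 790 ± 235 FPKM in injury ISNs and 531 ± 146 FPKM in distal ISNs (SD, n = 6 and 5). The log2 difference was 0.58 ± 0.38 (SE; 95% interval -0.20 to 1.37; limma p 0.138, adjusted p 0.838). An exact two-sided permutation test on the same log2 values gave p 0.0303, and 2.44% of all genes had such a p under 0.05, 0.753% of all genes with injury ISNs higher. It did not survive adjustment over the 24178 genes (adjusted p 1). With 462 splits the smallest possible p was 0.00216, so passing would need very many genes at that p at once. This failure therefore decides nothing about gch1. The difference stayed above 0 in all alternatives run, between 0.38 without distal replicate 2 and 0.76 without injury replicates 2 and 3 (limma p 0.0436, adjusted p 0.781).

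The BH4 list held 10 IDs besides gch1, of which 8 were tested and 0 passed an unadjusted p of 0.05. Its median log2 difference was -0.0034, against -0.04 over all genes tested. The abundant members were the recycling enzymes. QDPR (ENSDARG00000040190), dihydropteridine reductase, had 209 to 338 FPKM in injury ISNs and 193 to 397 FPKM in distal ISNs, with a log2 difference of 0.01. Pcbd1 acts just before it, and pcbd1 had 196 to 547 FPKM in injury ISNs and 124 to 660 FPKM in distal ISNs. In contrast the enzymes between Gch1 and BH4 were listed near or at 0. The gene of the second enzyme, pts, was above 0 in distal replicate 2 alone, at 18.8 FPKM, and of the 2 IDs with the symbol SPR, sepiapterin reductase, ENSDARG00000004406 reached 3.52 FPKM and ENSDARG00000058553 was listed at 0 in all. The paralog gch2, best known from pigment cells, had 46.9 FPKM in injury replicate 2 and no more than 9.29 FPKM elsewhere. For gchfr, the feedback regulator of Gch1, the range was 0 to 31.8 FPKM in injury ISNs and 0 to 19.01 FPKM in distal ISNs.

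The supply of tryptophan depends on the neutral amino acid carrier Slc7a5, also known as Lat1, and its heavy chain Slc3a2. The heavy chain lay in the range of ddc, with 767 to 2349 FPKM in injury ISNs and 598 to 1630 FPKM in distal ISNs for slc3a2b. For slc7a5 the values were 57.8 to 545 FPKM in injury ISNs and 44.2 to 286 FPKM in distal ISNs. Of the 10 IDs of this list 6 were tested, 0 passed an unadjusted p of 0.05 and the median log2 difference was 0.13.

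The vesicular transporter slc18a2 was detected in every library well below tph2. Injury replicates 1 to 6 had 385, 445, 683, 159.9, 209 and 183 FPKM, and distal replicates 1 to 5 had 329.8, 309, 102, 385 and 275 FPKM. Injury ISNs held the 2 highest values and distal ISNs the lowest, and the remaining values were interleaved. The means were 344 ± 202 FPKM in injury ISNs and 280 ± 107 FPKM in distal ISNs, and the log2 difference was 0.22 ± 0.53 (SE; 95% interval -0.86 to 1.31; limma adjusted p 0.925). It turned to -0.22 without injury replicates 2 and 3, which held the 2 highest injury values. It also turned, to -0.11, without distal replicate 3, which held the lowest value of all. The related vesicular carrier slc18b1 had at most 2.09 FPKM.

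The reuptake transporter slc6a4a was both the lowest of the 5 genes seen in all libraries and by far the most variable. Its FPKM was 49.4, 3.28, 200.1, 27.7, 39.1 and 38.4 in injury replicates 1 to 6, against 103.9, 33.8, 41.3, 183 and 98.7 in distal replicates 1 to 5. The highest and the lowest values were both in injury ISNs, in the 2 libraries with the fewest genes detected. The other 4 injury libraries lay between 27.7 and 49.4 FPKM, among the lower distal values. The means were 59.7 ± 70.6 FPKM in injury ISNs and 92.1 ± 60.1 FPKM in distal ISNs, and 5 of 6 injury libraries were below the distal median. On the log2 scale the difference was -1.13 ± 0.85 (SE; 95% interval -2.87 to 0.60; limma adjusted p 0.838). It was -1.64 without injury replicate 3 (limma p 0.0376, adjusted p 0.825), -0.52 without injury replicate 2 and -0.999 without both (limma p 0.102, adjusted p 0.781). The 3.28 FPKM of injury replicate 2 rested on 70 fragments, with an exact Poisson 95% interval of 54.6 to 88.4 that covers counting error only.

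The paralog slc6a4b was seen in 4 of the 11 libraries. It had 1.101 FPKM, from 29 fragments, in injury replicate 5, against 0.578, 4.32 and 0.212 FPKM, from 18, 118 and 7 fragments, in distal replicates 2, 4 and 5. The other 5 injury libraries and the other 2 distal libraries were listed at 0, where 3 fragments would be 0.0822 to 0.0991 FPKM. In the 4 libraries with a value, slc6a4a was 35.5-fold, 58.4-fold, 42.4-fold and 466-fold higher than its paralog. The log2 difference of -0.49 ± 0.45 (SE; 95% interval -1.42 to 0.44; limma adjusted p 0.838) rested on distal replicate 4 and was -0.06 without it. It also scaled with the pseudocount, as most values are 0, and was -2.69 with a pseudocount of 0.01. How reads shared by the paralogs were assigned is not given in the sources used here.

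**Figure D2:**
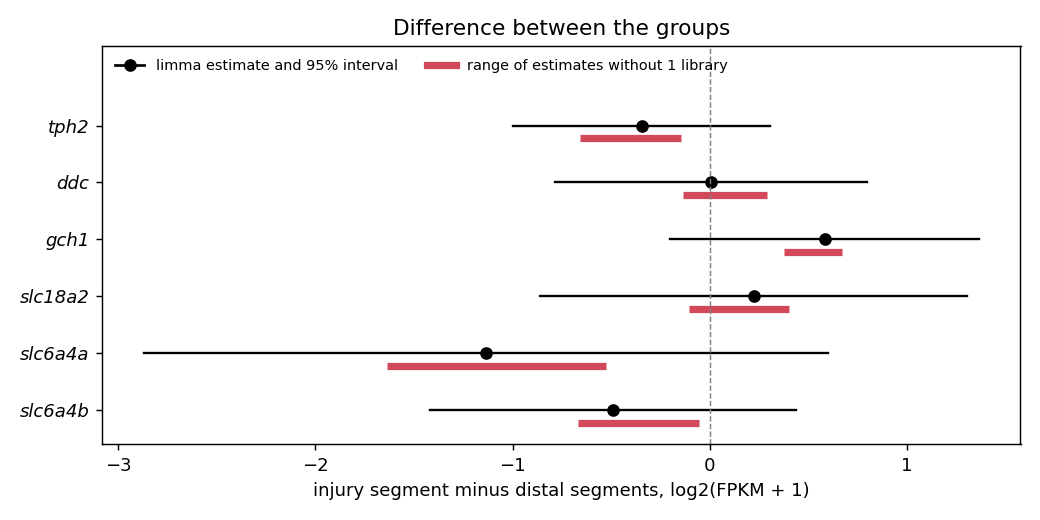
Difference between the injury segment (n = 6) and the distal segments (n = 5) on log2(FPKM + 1) for each gene. Black points and lines are limma estimates with 95% intervals, and red bars span the estimates when 1 library is left out. Every interval includes 0, and the red bars of ddc and slc18a2 cross it.

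Other plasma membrane carriers that can move serotonin were compared with slc6a4a. SLC29A4 (ENSDARG00000059690), the low-affinity monoamine transporter known as Pmat, was detected in all libraries, with 139.5, 19.05, 299, 103.6, 159 and 128 FPKM in injury replicates 1 to 6, against 44.2, 178, 98.2, 78.1 and 158 FPKM in distal replicates 1 to 5. This gene was singled out from its list after its values were seen. It was above slc6a4a in 6 of 6 injury libraries and in 3 of 5 distal libraries. The log2 ratio of SLC29A4 over slc6a4a was 1.71 ± 0.65 in injury ISNs and 0.37 ± 1.59 in distal ISNs (SD, n = 6 and 5; difference 1.34, exact two-sided permutation p 0.0974). A second ID of that symbol, ENSDARG00000079873, had at most 11.4 FPKM in injury ISNs and 23.9 FPKM in distal ISNs. The organic cation transporter slc22a3 was listed at 0 in all libraries, and slc22a2 had at most 0.663 FPKM.

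The dopamine transporter gene slc6a3 was low but uneven. Its FPKM was 1.36, 0, 0, 0.156, 2.61 and 4.12 in injury replicates 1 to 6, against 8.65, 11.9, 9.52, 1.33 and 27.9 in distal replicates 1 to 5. Only distal replicate 4 fell within the range of the injury libraries. The log2 difference was -2.34 ± 0.93 (SE; limma p 0.0176, adjusted p 0.838), so the gene was lower in injury ISNs before correction and not after it. The oligodendrocyte sum moved in the same direction, and its part was not tested. Of the other genes of catecholamine and histamine neurons, th and pnmt were listed at 0 in all libraries, and th2, dbh, slc6a2 and hdc reached 2.52, 1.60, 1.62 and 8.76 FPKM. On this list of 12 IDs, 9 were tested and slc6a3 was the single one with an unadjusted p under 0.05.

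**Figure D3:**
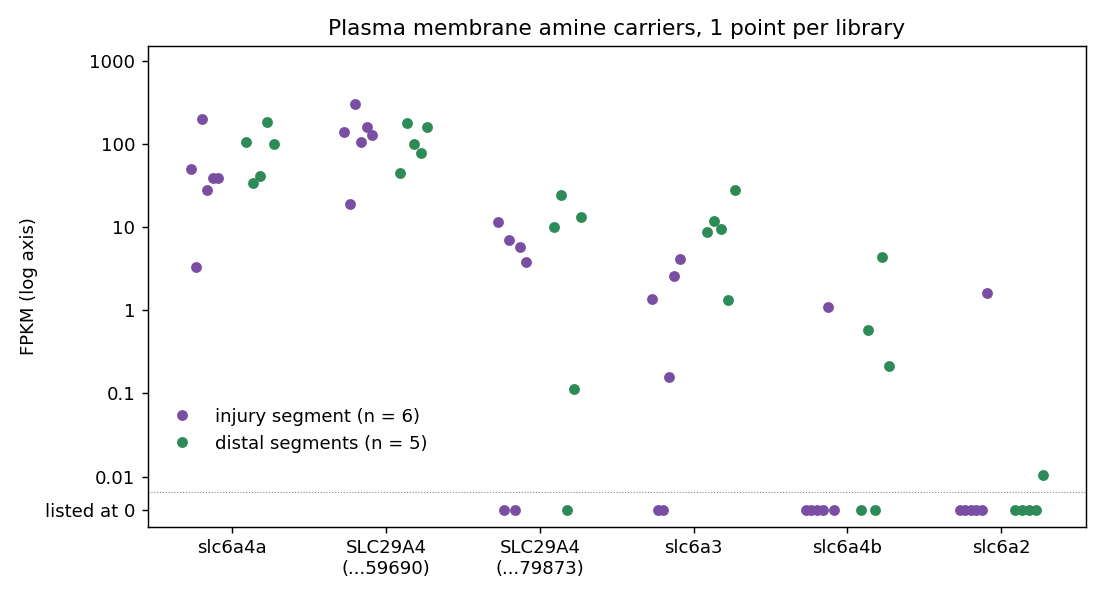
FPKM of plasma membrane amine carriers on a log axis, 1 point per library, purple for the injury segment (n = 6) and green for the distal segments (n = 5), with the last 5 digits of the ID where a symbol has 2. SLC29A4 ENSDARG00000059690 reaches the level of slc6a4a, and slc6a3 has 2 injury libraries listed at 0 while all distal libraries are above 0.

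Genes that remove serotonin were low beside those that make it. Monoamine oxidase, encoded by the single zebrafish gene mao, had 0 to 16.2 FPKM in injury ISNs and 3.22 to 22.7 FPKM in distal ISNs. The aldehyde dehydrogenase gene aldh2.1, of the next step, had 0 to 46.1 FPKM in injury ISNs and 6.76 to 64.1 FPKM in distal ISNs. The melatonin enzyme genes aanat2, asmt and asmt2 reached 3.06, 0.960 and 7.60 FPKM. All 7 IDs of this list were tested, 0 passed an unadjusted p of 0.05 and the median log2 difference was -0.37. The 4 serotonin receptor genes htr1aa, htr1ab, htr1b and htr1d, whose mammalian counterparts include the autoreceptors, had 0 to 98.0 FPKM in injury ISNs and 0 to 113 FPKM in distal ISNs, with a median log2 difference of 0.24 and none past an unadjusted p of 0.05. Over all lists around the 6 genes, 1 of 38 IDs tested had an unadjusted p under 0.05, which was lower in injury ISNs. Over all genes tested 0.658% were higher and 2.03% lower at that threshold. The count of 1 was 0 without distal replicate 5, 2 without injury replicate 1 or 2 or distal replicate 2, 3 without distal replicate 3 or 4, and 4 without injury replicates 2 and 3. It was also 2 without the filter on low values and 3 with voom.

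The order of levels was tph2, ddc, gch1, slc18a2, slc6a4a and slc6a4b. Geometric means over the 11 libraries were 3065, 925, 637, 279 and 48.5 FPKM for the first 5. Neighbours in this order were compared within libraries, with an exact two-sided sign-flip permutation test over 2048 sign patterns. The libraries are treated as independent there, although both groups came from the same fish. The order was also taken from these same libraries, and a high tph2 is what the sort asks for. The p-values below thus describe how regular the steps were and are no independent support for the order. The levels of tph2 were 3.31-fold those of ddc, in 11 of 11 libraries (exact p 0.000977, the smallest possible, Benjamini-Hochberg p 0.00195 over 4 steps). Those of slc18a2 were 5.74-fold those of slc6a4a, also in 11 of 11 (same values of p). The step from gch1 to slc18a2 was 2.28-fold, in 9 of 11 (exact p 0.00391, Benjamini-Hochberg p 0.00521). The step from ddc to gch1 was the smallest, 1.45-fold and in 9 of 11 libraries (exact p 0.0381, Benjamini-Hochberg p 0.0381), and it was no longer past the threshold without injury replicate 1 or 3 or distal replicate 1, 2 or 5 (exact p 0.0684 to 0.0762). In injury ISNs ddc was 1.21-fold gch1 (exact p 0.344, n = 6), so those neighbours did not differ beyond their spread there, against 1.81-fold in distal ISNs (exact p 0.0625, the smallest possible for n = 5). The full order of the 5 genes was met in 3 of 6 injury libraries and in 4 of 5 distal libraries.

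Ranks within a library, where 1 is the gene with the highest FPKM, do not depend on scaling between libraries. By rank tph2 was 15, 43, 8, 22, 16 and 42 in injury replicates 1 to 6, against 13, 7, 57, 18 and 10 in distal replicates 1 to 5. The ranks of ddc ran from 38 to 193 in injury ISNs and from 30 to 154 in distal ISNs, and again the groups overlapped. For gch1 they were 142, 200, 125, 75, 54 and 122 in injury ISNs, against 219, 261, 166, 170 and 111 in distal ISNs. Its mean log2 rank was lower by -0.70 in injury ISNs, that is nearer the top (exact two-sided permutation p 0.0909), and by -0.87 without injury replicate 2 (exact p 0.0317). Ranks of slc18a2 were 100 to 464 in injury ISNs and 239 to 786 in distal ISNs. Those of slc6a4a were 1692, 4838, 465, 2167, 1956 and 1851 in injury ISNs, against 946, 2521, 1609, 584 and 906 in distal ISNs, and overlapped widely. The exact two-sided permutation p was 0.537 for tph2, 0.868 for ddc, 0.571 for slc18a2 and 0.323 for slc6a4a. Where it was seen, slc6a4b ranked 15725 in injury replicate 5, against 8802, 8025 and 16764 in distal replicates 2, 4 and 5.

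**Figure D4:**
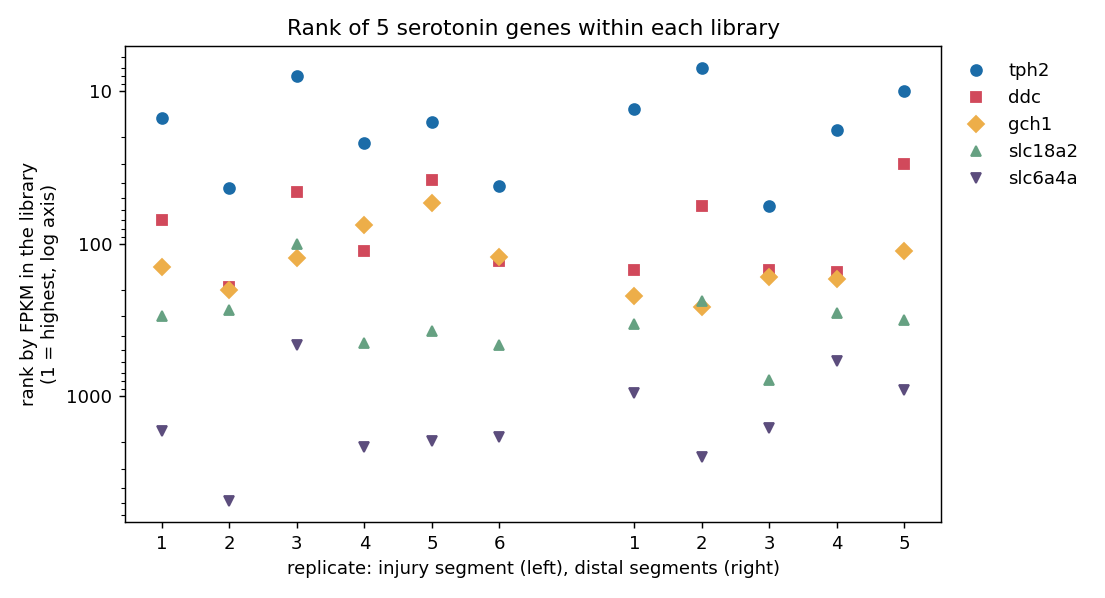
Rank by FPKM of 5 genes within each library, on a log axis with rank 1 at the top, for the 6 injury libraries on the left and the 5 distal libraries on the right. The symbols of tph2 lie above all others in every library, at ranks 7 to 57, and those of slc6a4a below all others, at ranks 465 to 4838.

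Ratios between steps ask whether a part of the pathway moved against another. Of the 10 ratios among the 5 genes seen in all libraries, 0 differed between the groups at a permutation p under 0.05, and the lowest Benjamini-Hochberg p over the 10 was 0.352. Transcripts of tph2 per transcript of ddc were 2.82, 3.29, 4.08, 4.10, 1.88 and 2.33 in injury replicates 1 to 6, against 4.98, 5.59, 2.35, 4.87 and 2.45 in distal replicates 1 to 5. Distal replicates 1, 2 and 4 stood above all injury libraries and the others fell among them. The log2 ratio was 1.57 ± 0.45 in injury ISNs and 1.92 ± 0.61 in distal ISNs (SD, n = 6 and 5; difference -0.35, exact two-sided permutation p 0.266).

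Ratios of tph2 to its cofactor enzyme and to the vesicular transporter were also lower on average in injury ISNs. Over gch1, tph2 had geometric means of 3.59-fold in injury ISNs and 6.84-fold in distal ISNs (log2 difference -0.93, exact two-sided permutation p 0.141). This ratio was the widest of those within synthesis, from 2.18 in injury replicate 6 to 20.9 in distal replicate 2. Over slc18a2, tph2 had 9.57, 4.63, 7.90, 15.0, 13.2 and 8.68-fold in injury replicates 1 to 6, against 10.8, 19.6, 14.3, 8.63 and 18.01-fold in distal replicates 1 to 5 (log2 difference -0.57, exact two-sided permutation p 0.132). Without injury replicates 2 and 3 that difference was -0.27, and without replicate 2 alone -0.37. For gch1 over slc18a2 the log2 means were 1.36 ± 1.13 in injury ISNs and 1.00 ± 0.97 in distal ISNs (difference 0.36, exact p 0.574), and the difference was 0.98 without injury replicates 2 and 3 (exact p 0.135). The geometric mean of tph2, ddc and gch1 over slc18a2, a summary of synthesis against loading, was 4.18-fold in injury ISNs and 4.61-fold in distal ISNs.

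Ratios over the reuptake transporter had higher means in injury ISNs, but the groups overlapped, none of the 4 passed the test over all 11 libraries and their sizes moved when 1 library was left out. For gch1 over slc6a4a the values were 15.1, 185, 2.93, 30.6, 31.4 and 18.98-fold in injury replicates 1 to 6, against 4.87, 8.55, 14.1, 3.41 and 6.61-fold in distal replicates 1 to 5. Thus 5 of 6 injury libraries lay above all distal libraries and injury replicate 3 below all of them. The log2 difference was 1.79 (exact two-sided permutation p 0.0823, Benjamini-Hochberg p 0.352). It was 2.38 without injury replicate 3 (exact p 0.00794) and 1.78 without injury replicates 2 and 3 (exact p 0.0159), neither of them corrected for the number of ratios. For tph2 over slc6a4a the geometric means were 82.7-fold in injury ISNs and 45.7-fold in distal ISNs (log2 difference 0.86, exact p 0.372). Of the 6 injury libraries 1 lay above all distal libraries. The difference was 0.27 without injury replicate 2, 0.53 without injury replicates 2 and 3, 0.52 without distal replicate 4 and 1.35 without distal replicate 2. For ddc over slc6a4a the geometric means were 27.9-fold in injury ISNs and 12.1-fold in distal ISNs (log2 difference 1.21, exact p 0.197), with 2 of 6 injury libraries above all distal libraries, and the difference was 0.66 without injury replicate 2, 0.79 without distal replicate 4 and 1.63 without injury replicate 3. Loading against reuptake, slc18a2 over slc6a4a, was 7.79, 136, 3.41, 5.78, 5.35 and 4.77-fold in injury replicates 1 to 6, against 3.18, 9.14, 2.47, 2.11 and 2.79-fold in distal replicates 1 to 5. All but 1 distal library were below every injury library. The log2 difference was 1.43 (exact two-sided permutation p 0.115), 0.64 without injury replicate 2, 0.80 without injury replicates 2 and 3 and 1.79 without distal replicate 2 (exact p 0.0429, uncorrected). The geometric mean of the 3 synthesis genes over slc6a4a was 31.0, 281, 8.05, 38.2, 43.7 and 24.1-fold in injury ISNs, against 10.5, 36.6, 19.6, 6.14 and 18.9-fold in distal ISNs. Its log2 difference was 1.28, and 0.70 without injury replicate 2. These ratios share slc6a4a and are not independent of each other.

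**Figure D5:**
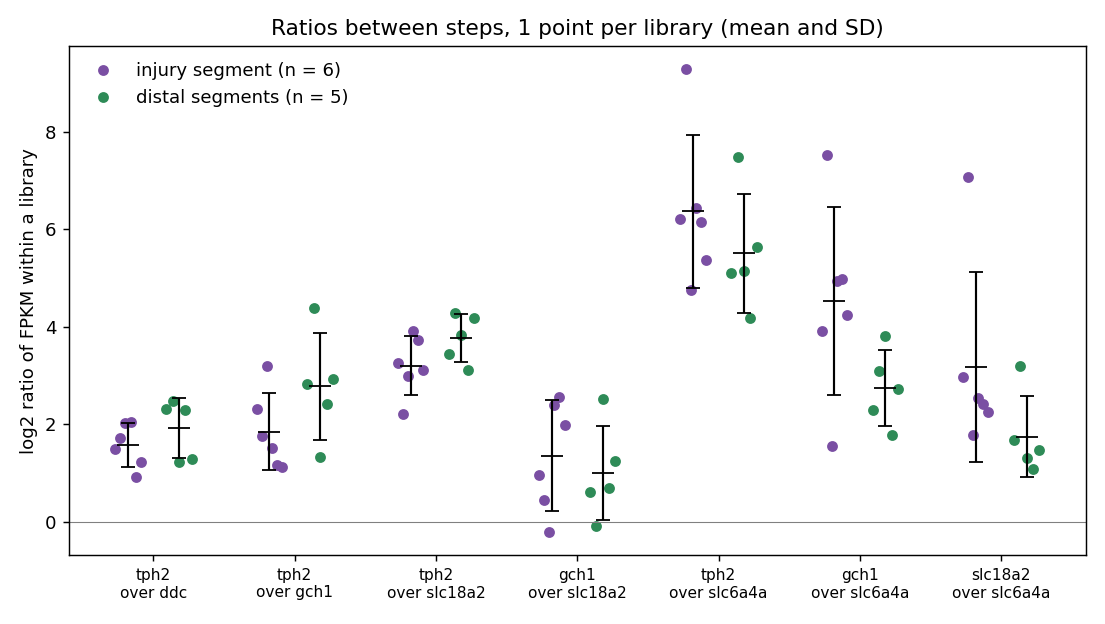
Log2 ratios of FPKM between genes within a library, 1 point per library, purple for the injury segment (n = 6) and green for the distal segments (n = 5), with the mean and SD in black. The groups overlap in every ratio shown, and injury replicate 2 stands above all other libraries in the ratios over slc6a4a.

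How far each gene varied was described by the SD of its log2 FPKM over the 11 libraries, set beside 2000 genes above 0 in all libraries with a mean of at least 10 FPKM. Those genes were not matched to the members by level, and their median SD was 0.93. Synthesis genes were below that median, with an SD of 0.51 for gch1 (percentile 6.25), 0.62 for ddc (percentile 15.2) and 0.69 for tph2 (percentile 22.8). For slc18a2 the SD was 0.77 (percentile 32.1). In slc6a4a it was 1.62 (percentile 80.7), with 1.92 in injury ISNs and 1.01 in distal ISNs. Its lowest and highest values, 3.28 and 200.1 FPKM, were in injury replicates 2 and 3, the libraries with the fewest genes detected. Within distal ISNs alone the SD was 0.48 for gch1, 0.70 for ddc and 0.78 for tph2. No test was made of these SDs, nor of the part that level, far lower at slc6a4a, has in them.

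No joint movement of the genes across libraries was established. Among 10 pairs, the closest were tph2 with ddc (Pearson's r 0.676, permutation p 0.0265, Benjamini-Hochberg p 0.139; Spearman's rho 0.718, permutation p 0.0156, Benjamini-Hochberg p 0.156). The r of this pair was 0.610 without the 2 libraries farthest from the median of tph2 and 0.739 within the 6 injury libraries (exact permutation p 0.117). For tph2 with slc18a2, r was 0.659 (permutation p 0.0278, Benjamini-Hochberg p 0.139) and rho 0.518 (permutation p 0.106, Benjamini-Hochberg p 0.405). The r of tph2 with slc18a2 was 0.352 without the same 2 libraries. It was 0.693 within the injury libraries (exact permutation p 0.136) and 0.794 within the distal libraries. Leaving out the libraries farthest in tph2 narrows its range, so it cannot show what a relation rests on. With gch1, tph2 had an r of -0.426 (permutation p 0.193) and a rho of -0.28 (permutation p 0.401). None of the 10 pairs passed the correction. With 11 libraries this does not show that the genes varied independently.

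The genes most like each member were taken by Pearson's r of log2(FPKM + 1) over the 11 libraries, among the same 2000 genes. They are a description only, since all points share library and detection. Taking the 5 highest of 2000 values of r also favours high values, so their size is no support for a link. Closest to tph2 were gpr3 (0.891), a constitutively active receptor, NDRG3 (0.886), tsg101a (0.872), PCSK1 (0.872), a prohormone convertase, and ubb (0.865), with ddc in place 125. Closest to ddc were GNAO1 (0.939), a G protein subunit of neurons, DDX6 (0.913), pcsk1nl (0.910), LNX2 (0.907) and LMX1B ENSDARG00000068365 (0.879), a transcription factor that serotonergic neurons need in the mouse. For slc18a2 they were SLC7A5 (0.914), the tryptophan carrier above, chmp4bb, GSE1, RERE and zgc:153157, and for slc6a4a hp1bp3 (0.915), PTGES3, CSTPP1, FLOT1 and PSMC6. Those of gch1 were Novel05306 (0.917), si:dkey-175g6.2, CHD2, si:dkey-16f21.2 and Novel03511. No member was among the 5 closest genes of another.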

How the data were processed

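The authors deposited FPKM, that is, read numbers already scaled to gene length and sequencing depth. RNA of the sorted cells was amplified by SMART-Seq v4 and reads were mapped with HISAT2 2.0.5. The submitters' processing notes also name HTSeq 0.9.1 and the build danRer11; the table has no coordinates. Library totals and fragments per gene were recovered from the FPKM, since each value is a whole number of fragments over a length and a total. For each gene the smallest length that gave whole fragments was taken. Fragments of genes above 0 in few libraries, such as slc6a4b, can thus be too low by a common factor. The check on simulated data required recovery only for genes above 0 in all libraries, 2287 IDs here. The voom fit rests on these fragments for all genes tested. Each of the 11 totals lay within 0.032 of a whole number. Symbols came from a table of gene names, which matched 29201 IDs.

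The fit was limma 3.58.1 under R 4.3.3, on log2(FPKM + 1), with lmFit and a trended eBayes prior, for the 24178 genes averaging 0.1 FPKM or more. Its two-sided p-values were adjusted by Benjamini-Hochberg over those genes. Such fold changes understate those of low genes. Ratios and ranks were compared with exact permutation tests over 462 splits (smallest p 0.00216), in Python 3.11.15 with scipy 1.17.1. Alternatives were other pseudocounts, filters, scalings and priors, voom, the replicate number as a block and leaving libraries out. The code was tested on simulated data. The authors' own DESeq test by unadjusted p-value was not refitted. The members and lists were chosen with earlier results of these data known. Genes named are the 6 members, the listed genes and the 5 closest to each member by Pearson's r.

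List genes were matched by symbol, also without the paralog letter. The pathway lists held 49 genes, 2 of them without an ID, and gave 49 IDs. Summed markers gave exact two-sided permutation p-values of 0.959 for ependymo-radial glia, 0.675 for microglia and macrophages, 0.848 for endothelium, 1 for erythrocytes, 0.383 for fibroblasts and pericytes, 0.565 for cerebrospinal fluid-contacting neurons, 0.182 for motor neurons, 0.697 for serotonergic neurons and 0.723 for pan-neuronal genes.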

Additional observations from a re-analysis of the deposited data

Results flagged for a closer look

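Of 36 sets of values tested, each 1 gene or 1 ratio in 1 group, 6 held a library far from the rest of its group by Dixon's criterion, which chance meets in about 1 of 20 sets. In 1 of these, slc6a4b in injury ISNs, all values but 1 are 0, which meets the criterion whatever the value, which leaves 5 of the other 35 sets. The rate of 1 in 20 holds for independent, normally distributed values. These sets share genes and libraries and some hold values at 0, so no excess over chance can be read from the count. All 6 involve slc6a4a or slc6a4b. For slc6a4a, injury replicate 3 had 200.1 FPKM, against at most 49.4 FPKM in the other injury libraries. For slc6a4b, injury replicate 5 had 1.101 FPKM with the other 5 injury libraries at 0, and distal replicate 4 had 4.32 FPKM with at most 0.578 FPKM in the other distal libraries. The log2 ratio of tph2 over slc6a4a was 9.29 in injury replicate 2, and that of slc18a2 over slc6a4a was 7.08 in the same library, where slc6a4a had its lowest value. Among distal libraries, the log2 ratio of slc18a2 over slc6a4a was 3.19 in replicate 2, with at most 1.67 in the others. These ratios share slc6a4a and are not separate events. Injury replicates 2 and 3 are also the libraries with the fewest genes detected, and the part of detection in these values was not tested.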

How the results depend on the processing

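Over 31 results and 525 alternatives, 464 kept their direction and their side of the threshold and 27 changed sign, all of them in the levels and ranks of ddc and slc18a2 or in ratios of ddc or synthesis over slc18a2. The adjusted count of 0 became 2 with a prior without trend and 3 with voom on the recovered fragments; no member was called under any of them. The count of 649 at an unadjusted p under 0.05 was 1169 with voom and 1100 without injury replicates 2 and 3, an alternative chosen after the data were seen. The share of these that was higher in injury ISNs was 24.5%, against 40.4% after quantile normalization, 44.4% with voom, 50.5% without injury replicate 2, 52.2% without injury replicate 3 and 80.3% without both. The median log2 difference of all genes, -0.04, lay between -0.19 without injury replicate 5 and 0.10 without distal replicate 5 when 1 library was left out, and was 0.06 without injury replicate 2, 0.08 without injury replicate 3, 0.23 without both and 0.01 after quantile normalization. It moved to -0.21 with a minimum mean of 1 FPKM, where slc6a4b could not be tested, and to -0.12 with a pseudocount of 0.01.

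The ddc difference was -0.0089 with median-ratio scaling and -0.058 with voom, and -0.13 to 0.29 with 1 library left out; that of slc18a2 was -0.11 to 0.40, and -0.22 without injury replicates 2 and 3. That of gch1, 0.58, passed only in the exact permutation test (p 0.0303) and, unadjusted, in voom (limma p 0.018) and without injury replicates 2 and 3 (limma p 0.0436). With 1 library left out, log2 differences lay between -1.29 and -0.53 for tph2 over gch1, -0.47 and 0.042 for ddc over slc18a2, 1.19 and 2.38 for gch1 over slc6a4a, 0.64 and 1.79 for slc18a2 over slc6a4a, and -0.34 and 0.061 for synthesis over slc18a2. In log2 rank they lay between -0.49 and 0.13 for ddc, -0.87 and -0.49 for gch1, and -0.43 and 0.028 for slc18a2. Without injury replicates 2 and 3 they were 0.24 for ddc over slc18a2, 1.78 for gch1 over slc6a4a, 0.32 for synthesis over slc18a2, -0.96 for the rank of gch1 and 0.13 for that of slc18a2. Taken between medians, ddc over slc18a2 was 0.0076. In the order of levels, the log2 step from ddc to gch1 was 0.40 to 0.65 with 1 library left out, 0.52 without injury replicates 2 and 3, 0.28 in injury ISNs and 0.85 in distal ISNs. The step from gch1 to slc18a2 was 1.36 in injury ISNs (exact p 0.0625) and 1.00 in distal ISNs (exact p 0.125), so it was not past the threshold in either group alone. In distal ISNs the steps from tph2 to ddc and from slc18a2 to slc6a4a were 1.92 and 1.74, each with an exact p of 0.0625, the smallest that 5 libraries allow. The cause of these changes was not tested.

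Replicate numbers are shared by the groups, but no label says that they mark the same fish, so the numbers were not taken as pairs. The deviations of same-numbered libraries had correlations of 0.05, 0.01, -0.05, 0.00 and 0.13 in replicates 1 to 5. In replicates 1 and 5 the same-numbered distal library was the closest of the 5, and in replicate 3 the farthest. Whether the numbers mark pairs is thus not settled. With the replicate number as a block in replicates 1 to 5, 0 genes passed adjustment and 675 had an unadjusted p under 0.05, against 646 in the same libraries without the block. No member was called with the block. By replicate number, the log2 difference of slc18a2 over slc6a4a was 1.61 (exact p 0.0625, the smallest that 5 pairs allow). The other ratios between genes had an exact p of 0.125 or more.

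At least 3312 fragments lay behind each value of the 4 higher genes. For slc6a4b there were 7 to 118 fragments in 4 libraries and 0 in the other 7. The RNA was amplified, and the part of depth in these values was not tested. With 6 and 5 libraries the intervals of the member differences leave room for changes of over 1 on the log2 scale at gch1, slc18a2, slc6a4a and slc6a4b.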
